A study of Homo sapiens with 6 samples.

Results

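The genes described here serve the folding, quality control and disposal of proteins in the endoplasmic reticulum (ER): a given list of 44 symbols of chaperones, isomerases, translocation channel subunits, degradation factors and ER stress sensors. Members were the rows of the expression table with one of these symbols or its current name. The rule uses no measured value, but the list was drawn up with earlier results of these data known. Of the 44, 43 were listed among the 14168 genes of the table, and DERL3, a degradation factor of the derlin family, had no row. VIMP is the older symbol of SELENOS, the name its row carries. The 43 listed genes all passed the filter on low values (at least 1 in at least 3 libraries), as did 13206 genes of the whole table.

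The libraries came from BJ cells, an established human foreskin fibroblast line labelled WT, given an siRNA against agrin (agrin siRNA, 3 libraries) or a control siRNA (control siRNA, 3 libraries). AGRN encodes agrin, a proteoglycan that cells secrete into the basement membrane, and the series asked what its knockdown does to the transcriptome of these cells. All cells were grown in RPMI with serum. The groups follow the title and treatment label of each sample. The treatment protocol text names the agrin siRNA for every sample, and the extraction text speaks of a compound treatment that no sample label names. The sources used here give no siRNA sequence, dose or time of harvest. Whether replicates were separate cultures is not stated either, so the p-values reflect variation among these 6 libraries that could be technical. Values are the deposited scaled CPM (reads per gene divided by a library size that the authors scaled), and 3 reads correspond to a value between 0.0681 and 0.0761, a floor that covers counting error only.

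Depth ran from 44321473 to 48246613 reads on listed genes in agrin siRNA libraries and from 42736368 to 44139864 in control siRNA libraries. AGRN stood at 290, 297 and 265 scaled CPM in agrin siRNA replicates 1, 2 and 3, against 744, 804 and 790 in control siRNA replicates 1, 2 and 3, -1.46 on the log2 scale (limma adjusted p = 3.19e-06), so the labels match the targeted gene. All 10 fibroblast markers were tested (1 higher, 4 lower, where 15.2% of all tested genes were called higher and 13.5% lower). Their summed levels were 60103 to 61504 scaled CPM in agrin siRNA libraries and 63336 to 66742 in control siRNA libraries. The epithelial keratins KRT18 and KRT8 were present (KRT18 not called, KRT8 lower at -0.21, limma adjusted p = 0.0102), while the defining epithelial gene CDH1 reached at most 0.0988. The endothelial gene CDH5 was at 0 in all 6 libraries. Of the leukocyte markers, CD68, a lysosomal glycoprotein, and CD14 were the only ones with a row. Both were called higher, with a summed level of 261 to 269 scaled CPM in agrin siRNA libraries and 125 to 143 in control siRNA libraries. Their part in the results below was not tested. The agrin siRNA libraries stood further from each other than the control siRNA libraries did: chi-square per degree of freedom of the read counts was 10.3 to 25.0 between agrin siRNA replicates and 4.45 to 5.90 between control siRNA replicates.

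Secreted and membrane proteins enter the ER through the Sec61 channel, are folded there by Hsp70 and Hsp90 family chaperones, by the lectins calnexin and calreticulin and by disulfide and prolyl isomerases, and are sent back to the cytosol for destruction when folding fails. When unfolded proteins build up, the sensors ATF6, IRE1 (ERN1) and PERK (EIF2AK3) start the unfolded protein response, in which ATF6 and the spliced form of XBP1 raise chaperone transcription and PERK acts through ATF4 and DDIT3 (CHOP). Fibroblasts make large amounts of collagen, whose folding depends on prolyl hydroxylase, prolyl isomerases and collagen chaperones of this compartment.

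Most of the lumenal chaperones and several isomerases rose modestly in agrin siRNA cells. HSPA5 (BiP), the main Hsp70 of the ER, rose 1.30-fold, and CALR, EDEM2, MANF and CRELD2 rose by similar amounts. The degradation lectin OS9, the translocation subunits SEC62 and SEC63 and the transcription factor CREB3L1 fell. None of the 3 sensors that start the unfolded protein response, nor XBP1, was called.

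In numbers, 19 of the 43 genes were higher and 4 lower in agrin siRNA libraries (limma on log2(scaled CPM + 0.5), two-sided, adjusted p under 0.05 over all 13206 tested genes), and 20 were not called. Over all tested genes 15.2% were called higher and 13.5% lower, 28.7% in either direction. The share of the genes called higher was thus above the background of all genes, and the share called lower, 9.30%, below it. Their median log2 fold change was 0.13, beside about 0 (-0.0001) for all tested genes, and 28 lay above 0 and 15 below. In 27 of the 43 genes the libraries of the groups did not overlap, 22 with agrin siRNA higher and 5 with it lower. Over all tested genes the groups did not overlap in 45.2%. In bulk RNA, a change in the number of cells that express a gene and a change in RNA per cell cannot be told apart.

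**Figure D1:**
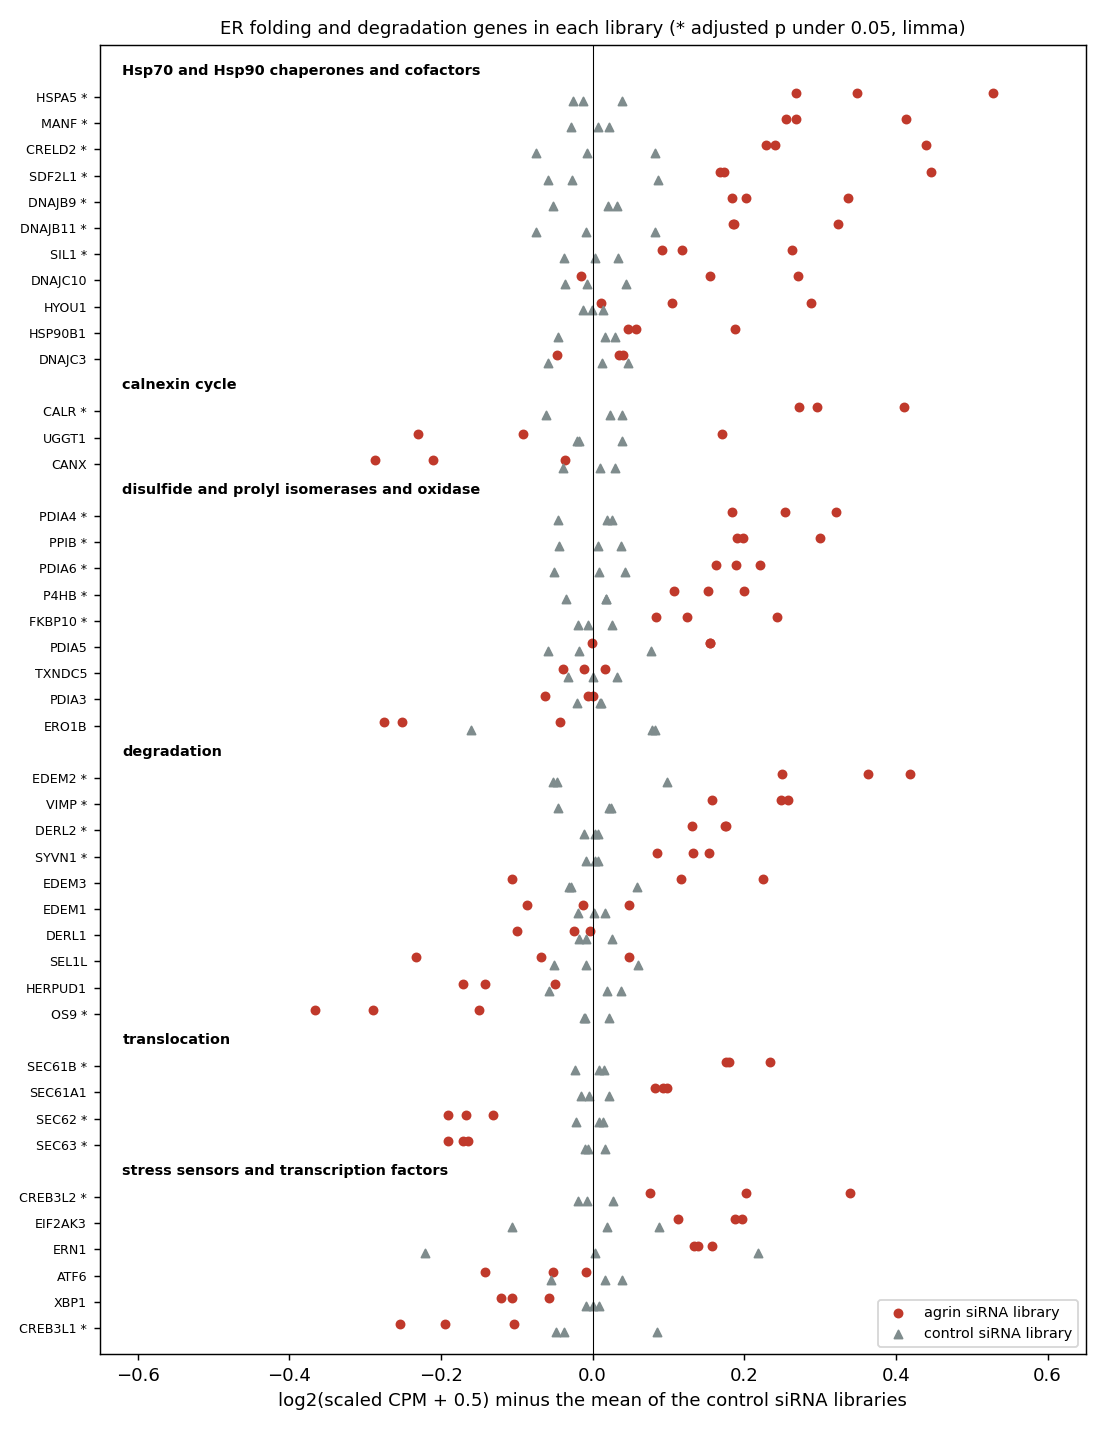
Each listed ER folding and degradation gene in each library, as log2(scaled CPM + 0.5) minus the mean of the 3 control siRNA libraries (x axis), with genes grouped by role down the page, circles for agrin siRNA libraries, triangles for control siRNA libraries and a star after genes with adjusted p under 0.05. Agrin siRNA circles lie right of the triangles for most Hsp70 and Hsp90 family genes and several isomerases, and left of them for OS9, SEC62, SEC63 and CREB3L1.

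The counts depended on single libraries and on scaling. Without control siRNA replicate 1, 9 of the 43 were called higher and 2 lower, beside 1124 and 947 of all 13206 tested genes. Without control siRNA replicate 2 the counts were 12 and 3, beside 1257 and 1067 of all tested genes. Leaving out agrin siRNA replicate 2 gave 19 and 7, beside 2551 and 2588. With all libraries, 2005 of all tested genes were higher and 1783 lower, so the counts moved over the whole table too. When the values were rescaled to the total without mitochondrial and the 10 most abundant genes, 14 of the 43 were higher and 7 lower, with CANX, HERPUD1 and XBP1 added to the lower ones, and the share of higher among all calls over the whole table was 41.1%, against 52.9% with the values as deposited. CALR, CRELD2, DNAJB9, EDEM2, HSPA5, MANF, OS9, PDIA4, SEC61B, SEC63 and VIMP kept their call and direction in all 19 alternatives run.

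Among the 11 genes of the Hsp70 and Hsp90 chaperones and their cofactors, 7 rose (63.6%, beside 15.2% of all tested genes). None was called lower, and the median log2 fold change was 0.23. HSPA5, at chr9:125234853-125241330 on the minus strand of GRCh38, stood at 1115, 1335 and 1179 scaled CPM in agrin siRNA replicates 1, 2 and 3, against 917, 951 and 909 in control siRNA replicates 1, 2 and 3. Every agrin siRNA library was above every control siRNA library. The means were 1209 ± 113 in agrin siRNA and 926 ± 21.9 in control siRNA libraries (SD, n = 3 each), which is 0.38 on the log2 scale (standard error 0.06, limma adjusted p = 0.00247).

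Short promoter elements are printed here because they are the letters through which ATF6 and XBP1 are known to act on this gene family, and because they let genes that moved and genes that did not be read side by side. The ER stress element (ERSE) was searched as CCAAT, any 9 bases and CCACG, and its variant ERSE-II as ATTGG, any base and CCACG, on both strands of windows from 250 bases before to 50 bases after each RefSeq gene start (GRCh38.p14). Of the 43 genes, 40 matched a window, and PDIA3, FKBP10 and DERL1 did not. Each line is read 5′ to 3′ along the strand of the motif, with the fixed motif letters in capitals, the spacer in lower case and 5 flanking bases on either side. Among genes called higher the matches were:
HSPA5: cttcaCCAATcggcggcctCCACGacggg
CRELD2: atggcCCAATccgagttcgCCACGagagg
CALR: accgaCCAATgatggtcgaCCACGcgtgg
PDIA6: ccggaCCAATgagccgcagCCACGgcttg
SDF2L1: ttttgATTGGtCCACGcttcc
Among genes not called they were:
HSP90B1: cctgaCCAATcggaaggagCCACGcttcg
HSP90B1: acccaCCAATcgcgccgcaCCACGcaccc
CANX: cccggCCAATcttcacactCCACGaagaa
ERO1B: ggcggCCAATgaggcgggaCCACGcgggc
XBP1: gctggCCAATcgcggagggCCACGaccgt
HYOU1: ctgggATTGGaCCACGtcacg
HYOU1: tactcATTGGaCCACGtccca
HERPUD1: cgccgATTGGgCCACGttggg

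The HSPA5 element lies at chr9:125241386-125241414, 66 bases before the RefSeq start, and that of CALR at chr19:12938379-12938407, 225 bases before its start. The elements of HSP90B1, CRELD2, CANX and PDIA6 lie inside the span of the gene in GENCODE release 29, which starts some transcripts further upstream. A gene was counted when any of its windows held the motif. ERSE was found in 8 of the 40 genes (20%) and in 25 of all 27305 genes with a window (0.0916%). ERSE-II was found in 3 of 40 (7.5%) and in 19 of all genes (0.0696%). The element was originally defined on promoters of this gene family, so its excess here is known background. By call, ERSE or ERSE-II was found in 5 of 18 genes called higher (27.8%), in 6 of 18 genes not called (33.3%) and in none of the 4 called lower. The calls of some of these genes, such as SDF2L1 and HYOU1, changed between alternatives, and the genes are few. Whether these elements took part in the changes was not tested. The letters TGACGTGG, the core of an XBP1 element named UPRE, were found in 4 of 40 genes (10%) and in 0.927% of all genes. These letters lay in HYOU1, where they overlap its upstream ERSE-II, and in DNAJC10, TXNDC5 and SEC62. None of the 18 genes called higher held them. TGATGCAA, a C/EBP-ATF composite element of the kind that ATF4 and CHOP bind, was found in HERPUD1 alone (1 of 40, beside 1.08% of all genes). A match describes letters and does not show that a factor was bound.

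The other genes that rose among the chaperone cofactors act on HSPA5 or work beside it. MANF, a cofactor of HSPA5 that is also secreted, stood at 55.7, 62.3 and 56.2 scaled CPM in agrin siRNA libraries and at 47.4, 45.7 and 46.9 in control siRNA libraries, without overlap (log2 fold change 0.31, standard error 0.05, limma adjusted p = 0.00199). CRELD2, an ER-resident protein with disulfide exchange motifs, stood at 58.7, 67.5 and 58.2 in agrin siRNA libraries and at 47.1, 52.6 and 49.4 in control siRNA libraries (0.30, standard error 0.07, limma adjusted p = 0.00793). Its exons overlap those of ALG12 on the opposite strand. DNAJB9 (ERdj4), a J-domain protein that directs HSPA5 to misfolded clients, stood at 42.1, 41.6 and 46.3 in agrin siRNA libraries and at 37.4, 35.2 and 37.1 in control siRNA libraries (0.24, standard error 0.05, limma adjusted p = 0.00900). DNAJB11 (ERdj3), a J-domain protein that binds unfolded clients, stood at 118, 130 and 118 in agrin siRNA libraries and at 98.4, 103 and 110 in control siRNA libraries (0.23, standard error 0.05, limma adjusted p = 0.0119). Its call was lost without control siRNA replicate 1 (adjusted p = 0.0628).

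SDF2L1, a component of the HSPA5 and ERdj3 chaperone complex, was the lowest gene of this group by reads, with 429 to 670 reads per library. It stood at 12.8, 15.6 and 12.8 scaled CPM in agrin siRNA libraries and at 10.8, 12 and 11.1 in control siRNA libraries, so agrin siRNA replicate 2 stood apart from the other two (0.26, standard error 0.09, limma adjusted p = 0.0459). SIL1, the nucleotide exchange factor of HSPA5, rose by 0.16 on the log2 scale (limma adjusted p = 0.0447). Neither call was firm. That of SIL1 was lost without agrin siRNA replicate 1 or 3 or any control siRNA replicate (adjusted p between 0.0751 and 0.165), and that of SDF2L1 without agrin siRNA replicate 2 or 3 or any control siRNA replicate (adjusted p between 0.0594 and 0.156).

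The 4 genes of this group that were not called include its Hsp90. HSP90B1 (GRP94), which folds integrins and Toll-like receptors, stood at 2125, 2327 and 2111 scaled CPM in agrin siRNA libraries and at 1979, 2086 and 2067 in control siRNA libraries (log2 fold change 0.10, 95% interval -0.03 to 0.22, limma adjusted p = 0.225). Its groups did not overlap, although the difference between them was of the size of the spread within the agrin siRNA group. HYOU1 (GRP170), a large Hsp70 relative that exchanges nucleotides on HSPA5, had 0.13 (adjusted p = 0.141), and DNAJC10 (ERdj5), a J-domain disulfide reductase, 0.14 (adjusted p = 0.149). In both, agrin siRNA replicate 1 lay among the control siRNA libraries, and both were called without that replicate (adjusted p = 0.021 for HYOU1 and 0.00731 for DNAJC10). DNAJC3 (p58IPK), a J-domain protein that also restrains PERK, was at 0.01 (adjusted p = 0.894). Within each library, HSPA5 stood at log2 ratios of -0.93, -0.80 and -0.84 to HSP90B1 in agrin siRNA replicates 1, 2 and 3, and at -1.11, -1.13 and -1.18 in control siRNA replicates. The difference of 0.28 between the group means came without overlap, and the exact two-sided permutation test gave 0.1, the smallest p that 3 libraries against 3 allow. Without overlap no other p was possible. The ratio was set up after the values had been seen and restates them.

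The lectins of the calnexin cycle, which hold glycoproteins while their sugars are trimmed, did not move together. CALR (calreticulin), the soluble lectin, at chr19:12938578-12944489, stood at 2471, 2718 and 2512 scaled CPM in agrin siRNA libraries and at 1960, 2100 and 2078 in control siRNA libraries. The means were 2567 ± 132 in agrin siRNA and 2046 ± 75.2 in control siRNA libraries (SD, n = 3 each), which is 0.33 on the log2 scale (standard error 0.06, limma adjusted p = 0.00288). Every agrin siRNA library was again above every control siRNA library. CANX (calnexin), its membrane-bound relative, at chr5:179678628-179730925, stood at 813, 968 and 858 in agrin siRNA libraries and at 999, 1013 and 966 in control siRNA libraries (-0.18, standard error 0.06, limma adjusted p = 0.0621). CANX was not called, and agrin siRNA replicate 2 reached the lowest control siRNA library. It was called lower without that replicate (adjusted p = 0.00132), in DESeq2 on recovered reads (adjusted p = 0.028) and with quantile normalization (adjusted p = 0.0237).

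Within libraries, CALR exceeded CANX by a log2 ratio of 1.60, 1.49 and 1.55 in agrin siRNA replicates, against 0.97, 1.05 and 1.11 in control siRNA replicates, a difference of 0.50 without overlap. The exact two-sided permutation test gave 0.1, again the smallest p possible, and the pair was among 4 ratios set up after values had been seen. The ratio within a library does not depend on its scaling, but it restates the values above and is no separate evidence. UGGT1, the glucosyltransferase that returns unfolded glycoproteins to the cycle, was spread over 127, 168 and 140 scaled CPM in agrin siRNA libraries around 154, 147 and 148 in control siRNA libraries (-0.05, adjusted p = 0.688). Without agrin siRNA replicate 2 it was called lower (-0.16, adjusted p = 0.0167).

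**Figure D2:**
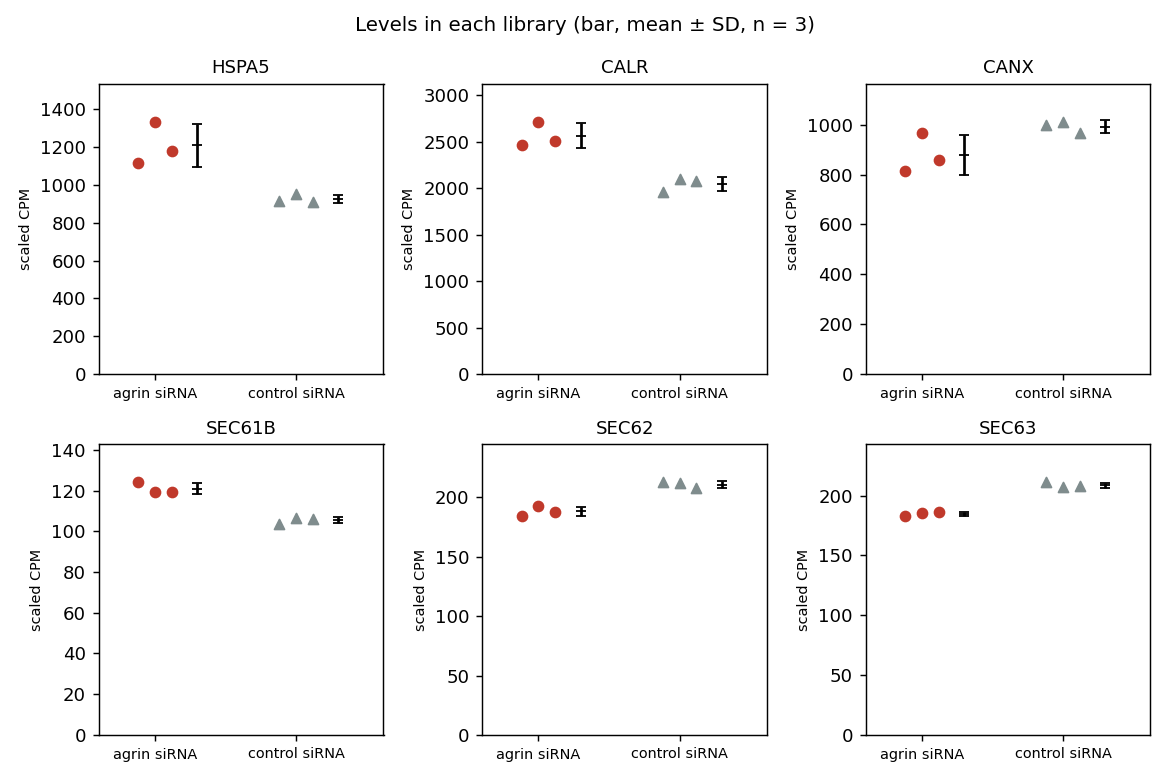
Scaled CPM of HSPA5, CALR, CANX, SEC61B, SEC62 and SEC63 in each library, with agrin siRNA circles left of control siRNA triangles and bars for the mean ± SD of 3 libraries. HSPA5, CALR and SEC61B are higher in all 3 agrin siRNA libraries, SEC62 and SEC63 are lower in all 3, and CANX overlaps in agrin siRNA replicate 2.

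Of the 9 disulfide and prolyl isomerases and the oxidase, 5 rose (55.6%, beside 15.2% of all tested genes). None was called lower, and the median log2 fold change was 0.15. PDIA4 (ERp72), a disulfide isomerase, stood at 485, 533 and 509 scaled CPM in agrin siRNA libraries and at 413, 432 and 434 in control siRNA libraries (0.25, standard error 0.05, limma adjusted p = 0.00342). PPIB (cyclophilin B), the prolyl isomerase that takes part in collagen folding, stood at 1271, 1184 and 1177 in agrin siRNA libraries and at 1000, 1037 and 1059 in control siRNA libraries (0.23, standard error 0.05, limma adjusted p = 0.00714). In both genes the groups did not overlap, and for PPIB agrin siRNA replicate 1 was the highest library. PPIB overlaps SNX22 on the opposite strand, and its call was narrowly lost without control siRNA replicate 1 (adjusted p = 0.0501).

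PDIA6, an isomerase that also attenuates IRE1, rose by 0.19 (limma adjusted p = 0.0108), and its call was lost without control siRNA replicate 1 (adjusted p = 0.0721) and with quantile normalization (adjusted p = 0.125). P4HB, the disulfide isomerase that is also the beta subunit of collagen prolyl 4-hydroxylase, rose by 0.15 (adjusted p = 0.0406). FKBP10 (FKBP65), a prolyl isomerase and collagen chaperone, rose by 0.15 (adjusted p = 0.0479). Neither of these calls was firm: both were lost without agrin siRNA replicate 1 or 3 or any control siRNA replicate, with adjusted p between 0.0715 and 0.175 for P4HB and between 0.0851 and 0.166 for FKBP10. PDIA5 (0.10, adjusted p = 0.195), TXNDC5 (-0.01, adjusted p = 0.855) and PDIA3, the isomerase that works with both lectins (-0.02, adjusted p = 0.718), were not called. PDIA5 was called higher without agrin siRNA replicate 2 (adjusted p = 0.0209). Outside the set, the collagen folding genes SERPINH1 (-0.02, adjusted p = 0.793), P3H1 (-0.05, adjusted p = 0.574) and CRTAP (0.03, adjusted p = 0.606) were not called. Of the collagen genes among the fibroblast markers, COL1A1 was lower (-0.27, limma adjusted p = 0.0429). COL1A2 (-0.04, adjusted p = 0.729) and COL3A1 (0.16, adjusted p = 0.125) were not called. ERO1B, an oxidase that recharges the disulfide isomerases, was the gene with the fewest reads, 193 to 246 per library, and stood at 4.77, 4.68 and 5.59 scaled CPM in agrin siRNA libraries and at 6.14, 6.12 and 5.11 in control siRNA libraries (-0.19, 95% interval -0.41 to 0.03, adjusted p = 0.181).

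The degradation genes divided, with 4 higher (40%), 1 lower (10%) and 5 not called among the 10 listed (median log2 fold change 0.03). Over all tested genes 15.2% were called higher and 13.5% lower. EDEM2, which starts the mannose trimming that marks glycoproteins for disposal, at chr20:35115357-35147364, stood at 54.3, 50.2 and 56.5 scaled CPM in agrin siRNA libraries and at 40.8, 40.7 and 45.2 in control siRNA libraries. This was the second largest change of the whole gene set (0.34, standard error 0.06, limma adjusted p = 0.00268). OS9, a lectin that recognises the trimmed sugars and hands clients to the SEL1L ligase complex, at chr12:57693955-57721557, went the other way, with 462, 398 and 420 in agrin siRNA libraries and 509, 521 and 510 in control siRNA libraries. The log2 fold change of OS9, -0.27 (standard error 0.05, limma adjusted p = 0.00596), was the largest decrease of the set, and no agrin siRNA library reached a control siRNA library.

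Around the membrane ligase, VIMP (SELENOS), a selenoprotein that recruits the p97 ATPase to derlins, stood at 74.1, 69.5 and 74.6 scaled CPM in agrin siRNA libraries and at 63.2, 60.4 and 63.4 in control siRNA libraries (0.22, standard error 0.04, limma adjusted p = 0.00545). DERL2, a derlin of the retrotranslocation complex, rose by 0.16 (adjusted p = 0.0137), which was lost without control siRNA replicate 1 (adjusted p = 0.0583) or 2 (adjusted p = 0.062). SYVN1 (HRD1), the ubiquitin ligase itself, rose by 0.12 (adjusted p = 0.0472), which was lost without agrin siRNA replicate 1 or 3 or any control siRNA replicate (adjusted p between 0.0671 and 0.165). Its exons overlap FAU on the same strand and MRPL49 on the opposite strand. Its partner SEL1L was at -0.08 (adjusted p = 0.371) and was called lower without agrin siRNA replicate 2 (-0.15, adjusted p = 0.0383). HERPUD1, a stress-induced scaffold of the ligase, was at -0.12 (adjusted p = 0.0734) and was called lower without agrin siRNA replicate 1 (-0.16, adjusted p = 0.0191). The mannosidase relatives EDEM1 (-0.02, adjusted p = 0.797) and EDEM3 (0.08, adjusted p = 0.472) and the derlin DERL1 (-0.04, adjusted p = 0.477) were not called, and EDEM3 was called higher without agrin siRNA replicate 1 (0.17, adjusted p = 0.0285).

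The 4 translocation genes did not move together, and their groups did not overlap in any of them. Over all tested genes the groups did not overlap in 45.2%. SEC61B, the small beta subunit of the Sec61 channel, at chr9:99222064-99230615, stood at 124, 119 and 120 scaled CPM in agrin siRNA libraries and at 104, 107 and 106 in control siRNA libraries (0.20, standard error 0.04, limma adjusted p = 0.00399). SEC62, at chr3:169966635-169998373, stood at 185, 192 and 188 in agrin siRNA libraries and at 213, 212 and 208 in control siRNA libraries (-0.16, standard error 0.04, limma adjusted p = 0.00884). SEC63, at chr6:107867756-107958189, stood at 183, 185 and 186 in agrin siRNA libraries and at 211, 207 and 208 in control siRNA libraries (-0.18, standard error 0.03, limma adjusted p = 0.00478). SEC62 and SEC63 are the membrane partners that help the channel open for short or slowly inserting proteins, and SEC62 also serves in the clearance of ER by autophagy. The call of SEC62 was narrowly lost without control siRNA replicate 1 (adjusted p = 0.0545). SEC61A1, the pore-forming subunit, stood at 873, 879 and 882 in agrin siRNA libraries and at 815, 821 and 836 in control siRNA libraries, without overlap but not called (0.09, adjusted p = 0.106).

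SEC61B stood to SEC63 within a library at log2 ratios of -0.56, -0.64 and -0.64 in agrin siRNA replicates, against -1.03, -0.96 and -0.97 in control siRNA replicates. The difference of 0.37 came without overlap, as did that of SEC61B to SEC62 (0.36), and both gave an exact two-sided permutation p of 0.1, the smallest possible, among the same 4 ratios.

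Of the 6 stress sensors and ER-anchored transcription factors, 1 rose, 1 fell (16.7% each) and 4 were not called. Both shares are near those of all tested genes, 15.2% higher and 13.5% lower. CREB3L2 and CREB3L1 are membrane-bound transcription factors of the OASIS family, cleaved like ATF6, with known roles in secretory capacity and collagen production. CREB3L2 stood at 138, 166 and 150 scaled CPM in agrin siRNA libraries and at 133, 129 and 130 in control siRNA libraries (0.21, standard error 0.06, limma adjusted p = 0.0312). CREB3L1 stood at 168, 179 and 161 in agrin siRNA libraries and at 186, 204 and 187 in control siRNA libraries (-0.18, standard error 0.05, limma adjusted p = 0.0264). The groups overlapped in neither gene, but both calls were lost without agrin siRNA replicate 3 or any control siRNA replicate (adjusted p between 0.0789 and 0.102 for CREB3L2, and between 0.0545 and 0.111 for CREB3L1).

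The sensors showed small differences, and RNA level does not report their activation, which occurs by cleavage, phosphorylation or splicing. EIF2AK3 (PERK) stood at 35.7, 37.6 and 37.8 scaled CPM in agrin siRNA libraries and at 35.0, 30.6 and 33.4 in control siRNA libraries (0.17, adjusted p = 0.0578), and was called higher without agrin siRNA replicate 1 (adjusted p = 0.0398). ERN1 (IRE1) stood at 20.7, 21.0 and 20.6 in agrin siRNA libraries, within the control siRNA values of 21.9, 16.0 and 18.8 (0.14, adjusted p = 0.292). ATF6 stood at 85.5, 93.8 and 91.1 in agrin siRNA libraries and at 95.5, 90.9 and 97.0 in control siRNA libraries, so its groups overlapped (-0.07, adjusted p = 0.307). XBP1, whose mRNA is spliced by IRE1 to the active form, stood at 192, 184 and 186 in agrin siRNA libraries and at 199, 200 and 201 in control siRNA libraries. Its groups did not overlap, but the difference was not called (-0.09, adjusted p = 0.0743), and it was called lower without agrin siRNA replicate 1 (-0.11, adjusted p = 0.0345). Gene totals do not separate spliced from unspliced XBP1.

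The set took 1.67% ± 0.0406 of the reads in agrin siRNA libraries and 1.55% ± 0.0314 in control siRNA libraries (SD, n = 3 each). Levels per kilobase were taken over all annotated exon bases of a gene, not over the messages made. By this measure CALR was the highest of the 43 genes, at 946 ± 48.8 scaled CPM per kb in agrin siRNA libraries and 754 ± 27.7 in control siRNA libraries. PPIB and HSP90B1 followed in control siRNA libraries. HSPA5 stood at 309 ± 28.96 scaled CPM per kb in agrin siRNA libraries and at 237 ± 5.61 in control siRNA libraries, above PDIA3 in agrin siRNA libraries (253 ± 6.17) and below it in control siRNA libraries (257 ± 3.13). The sensors lay near the low end, EIF2AK3 at 6.81 ± 0.219 scaled CPM per kb in agrin siRNA and 6.07 ± 0.414 in control siRNA libraries, and ERN1 at 1.91 ± 0.0170 in agrin siRNA and 1.74 ± 0.271 in control siRNA libraries. ERO1B was lowest at 0.934 ± 0.0934 in agrin siRNA libraries and 1.08 ± 0.110 in control siRNA libraries, below ERN1 by more than the SDs.

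The agrin siRNA libraries differed more among themselves than the control siRNA libraries, also in these genes. The median over the 43 genes of the SD of log2 values was 0.0735 in agrin siRNA libraries and 0.0393 in control siRNA libraries, and the agrin siRNA SD was the larger in 35 of 43 genes. Agrin siRNA replicate 2 was the highest of its group for 23 of 43 genes, for 8 of the 11 Hsp70 and Hsp90 group genes and for all 3 calnexin cycle genes. In the Hsp70 and Hsp90 group the median difference from the control siRNA mean was 0.18, 0.29 and 0.17 on the log2 scale in agrin siRNA replicates 1, 2 and 3, so all 3 libraries shared the direction.

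Gene length moved with the result. Exon length here counts all annotated exon bases of a gene, which can exceed the length of the messages the cells make. Genes of the set that rose had a median exon length of 3.91 kb, those that fell 6.55 kb and those not called 5.91 kb. Over all tested genes the medians were 3.94 kb for genes that rose, 6.20 kb for those that fell and 4.91 kb for those not called. Across the 43 genes the Spearman correlation of log2 fold change with exon length was -0.51, and across 13184 tested genes with a known length it was -0.22. These are descriptions across genes of the same 6 libraries, and genes are not independent replicates. In an alternative chosen after seeing the data, the length trend of each library was removed. It called 21 of the 43 genes higher and 5 lower, and 22 of the 23 calls were shared. Of the 13184 genes it called 1984 higher and 1840 lower. SDF2L1 lost its call (adjusted p = 0.162), HYOU1, DNAJC10 and EIF2AK3 were newly called higher, and XBP1 was newly called lower (-0.13, adjusted p = 0.0127). The lower calls of SEC62 and SEC63, long by this measure, and the higher calls of SEC61B, EDEM2 and PPIB, short by it, remained. Whether length has a part in the changes was not tested.

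**Figure D3:**
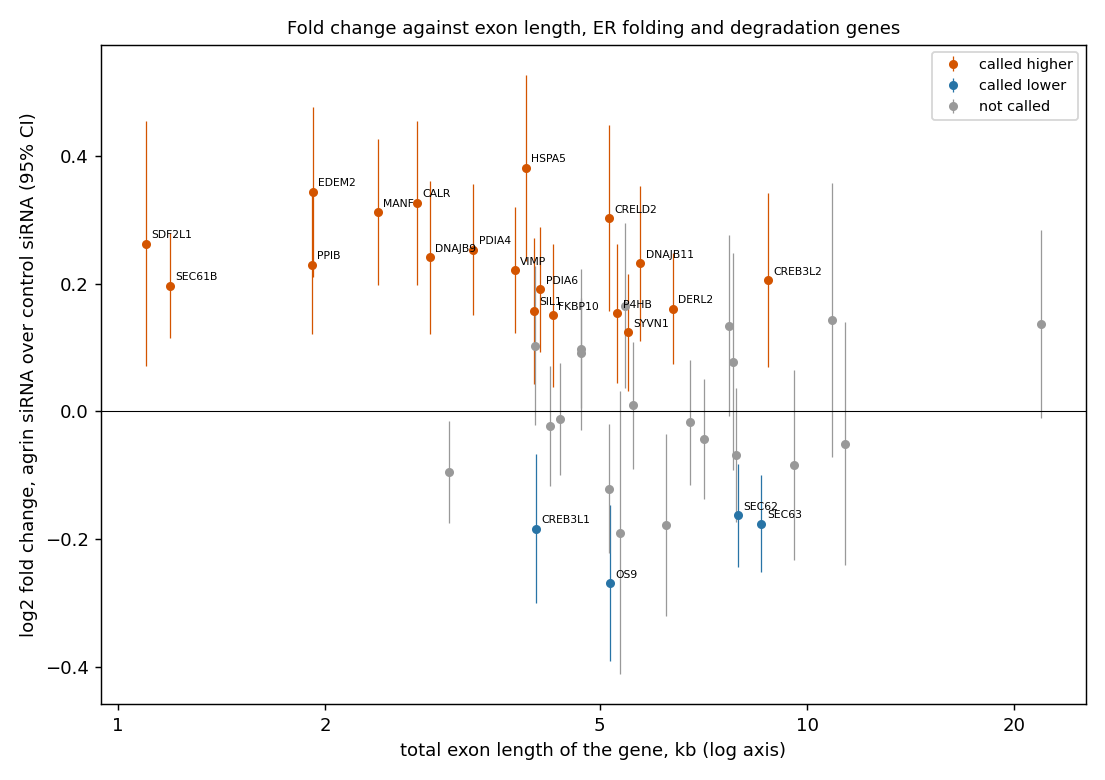
Log2 fold change of agrin siRNA over control siRNA (y axis, points, with 95% intervals) against total exon length in kb (log x axis) for the 43 ER folding and degradation genes, with called genes coloured and named. Genes under 4 kb lie mostly above 0, and the Spearman correlation across the 43 genes was -0.51.

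The library kit was stranded, but the strand setting of the authors' counting is not known. Reads of genes that overlap on the opposite strand may therefore not have been kept apart. Strand cannot separate genes that overlap on the same strand. Of the 43 genes, 15 share exon bases with another listed gene, 5 on the same strand and 13 on the opposite strand. Among the called genes, DNAJB11 and SYVN1 overlap listed genes on both strands. SIL1, DNAJB9, CRELD2, PDIA6, P4HB, PPIB and DERL2 overlap on the opposite strand only, and are uncertain only if strand was ignored. HSPA5, CALR, EDEM2, OS9, SEC61B, SEC62, SEC63 and the other called genes share no exon bases with a listed gene.

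Other genes of ER protein handling were read from lists that do not hold any of the 44 symbols. The oligosaccharyltransferase, which attaches N-glycans as proteins enter the ER, had 6 of 12 subunit genes higher (50%) and none lower (median 0.12). Over all tested genes 15.2% were called higher and 13.5% lower. OST4, a small subunit, averaged 185 ± 2.14 scaled CPM in agrin siRNA libraries and 144 ± 3.00 in control siRNA libraries (SD, n = 3 each; log2 fold change 0.35, limma adjusted p = 0.000161), and TMEM258, another small subunit, rose by 0.30 (limma adjusted p = 0.00158). Among 24 genes of vesicle export and KDEL retrieval, 7 rose (29.2%) and none was called lower (median 0.07). They were led by KDELR3, a receptor that returns escaped chaperones to the ER (0.28, limma adjusted p = 0.000791), and LMAN2, a lectin of the early secretory route (0.25, limma adjusted p = 0.00149).

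Of 21 other translocation and signal peptidase genes, 6 rose (28.6%) and 3 fell (median 0.07), and the share that fell, 14.3%, is near the 13.5% of all tested genes. SEC11C, a catalytic subunit of signal peptidase, rose by 0.48 (limma adjusted p = 0.00278) and SEC61G, the gamma subunit of the channel, by 0.26 (limma adjusted p = 0.00205). SRP9, of the signal recognition particle, was at -0.60 (limma adjusted p = 2.59e-05), and TRAM1, a membrane protein at the channel, was at -0.44 (limma adjusted p = 0.00139). Of 36 other oxidoreductases and folding factors, 9 rose (25%) and 3 fell (8.33%), beside 15.2% and 13.5% of all tested genes (median 0.04). MOGS, the glucosidase that starts glycan trimming, and SELENOM, a selenoprotein of the ER, each rose by 0.37 (limma adjusted p = 0.000623 and 0.00162), while the membrane thioredoxins TMX4 (-0.31, limma adjusted p = 0.000504) and TMX3 (-0.25, limma adjusted p = 0.00194) fell. Of 31 other degradation genes, 6 rose (19.35%) and 3 fell (9.68%), with a median of 0.07. These shares are near the 15.2% and 13.5% of all tested genes. TMUB1, a membrane protein with a ubiquitin-like domain, was at 0.25 (limma adjusted p = 0.0142), and ERLEC1, a lectin that resembles OS9 in role, rose by 0.21 (limma adjusted p = 0.00215). MARCH6, a membrane ubiquitin ligase, was at -0.21 (limma adjusted p = 0.0101) and UBXN4, which binds the p97 ATPase at the ER, at -0.20 (limma adjusted p = 0.0162). Without control siRNA replicate 1 the calls of TMUB1 (adjusted p = 0.0711), MARCH6 (adjusted p = 0.0566) and UBXN4 (adjusted p = 0.0767) were lost, and that of UBXN4 also without control siRNA replicate 2 (adjusted p = 0.062).

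The listed genes of the ATF4 and CHOP branch did not rise as a group. Of 12 tested, 1 rose (8.33%) and 5 fell (41.7%), with a median log2 fold change of -0.17. Over all tested genes 15.2% were called higher and 13.5% lower. PERK activity was not measured. CHAC1, which degrades glutathione, rose by 0.34 (limma adjusted p = 0.000823), while ASNS, asparagine synthetase, was at -0.58 (limma adjusted p = 0.000321) and VLDLR, a lipoprotein receptor, at -0.55 (limma adjusted p = 0.00175). DDIT3 (CHOP) was at -0.44 (limma adjusted p = 0.00684) and ATF4 at -0.10 (adjusted p = 0.191). Among 13 other stress transducers, 2 rose (15.4%) and 1 fell (7.69%), with a median of 0.03. The share that rose is near that of all tested genes, and the share that fell is below it. BAX, a pore protein of apoptosis, and CREB3, a relative of CREB3L2, rose by 0.36 and 0.32 (limma adjusted p = 0.000869 and 0.000745). WFS1, an ER membrane protein, was at -0.17 (limma adjusted p = 0.0369). The WFS1 call was lost without agrin siRNA replicate 3 or any control siRNA replicate (adjusted p between 0.0669 and 0.146).

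Chaperones of other compartments lay nearer the background. Of 25 cytosolic chaperone genes, 5 rose and 1 fell (median 0.03), and the share called higher, 20%, compares with 15.2% of all genes. HSPA4L, an Hsp110 family chaperone, was at 0.43 (limma adjusted p = 0.0225), a call lost without agrin siRNA replicate 3 or control siRNA replicate 2 or 3 (adjusted p between 0.0724 and 0.0887). HSPA1B, an inducible cytosolic Hsp70, was at 0.27 (limma adjusted p = 0.0106), but it has a near-identical copy, HSPA1A, with which its reads may be shared. DNAJB6, a cytosolic J-domain protein, was at -0.13 (limma adjusted p = 0.0253), a call lost without agrin siRNA replicate 3 or any control siRNA replicate (adjusted p between 0.0613 and 0.104) and with the length trend removed (-0.06, adjusted p = 0.333).

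Of 12 mitochondrial chaperones and proteases, 2 rose and 2 fell (median 0.04), near the background in both directions. GRPEL1, the nucleotide exchange factor of the mitochondrial Hsp70, was at 0.21 (limma adjusted p = 0.0179) and CLPP, a matrix protease, at 0.20 (limma adjusted p = 0.0172). LONP1, another matrix protease, was at -0.28 (limma adjusted p = 0.0127) and HSPA9, the mitochondrial Hsp70 itself, at -0.13 (limma adjusted p = 0.0256). None of these calls was firm. Those of GRPEL1 and CLPP were lost without agrin siRNA replicate 3 or any control siRNA replicate (adjusted p between 0.0526 and 0.0727), and that of LONP1 without agrin siRNA replicate 3 or control siRNA replicate 1 or 2 (adjusted p between 0.0508 and 0.0585). That of HSPA9 was lost without agrin siRNA replicate 3 or any control siRNA replicate (adjusted p between 0.0686 and 0.128) and with the length trend removed (-0.09, adjusted p = 0.102).

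**Figure D4:**
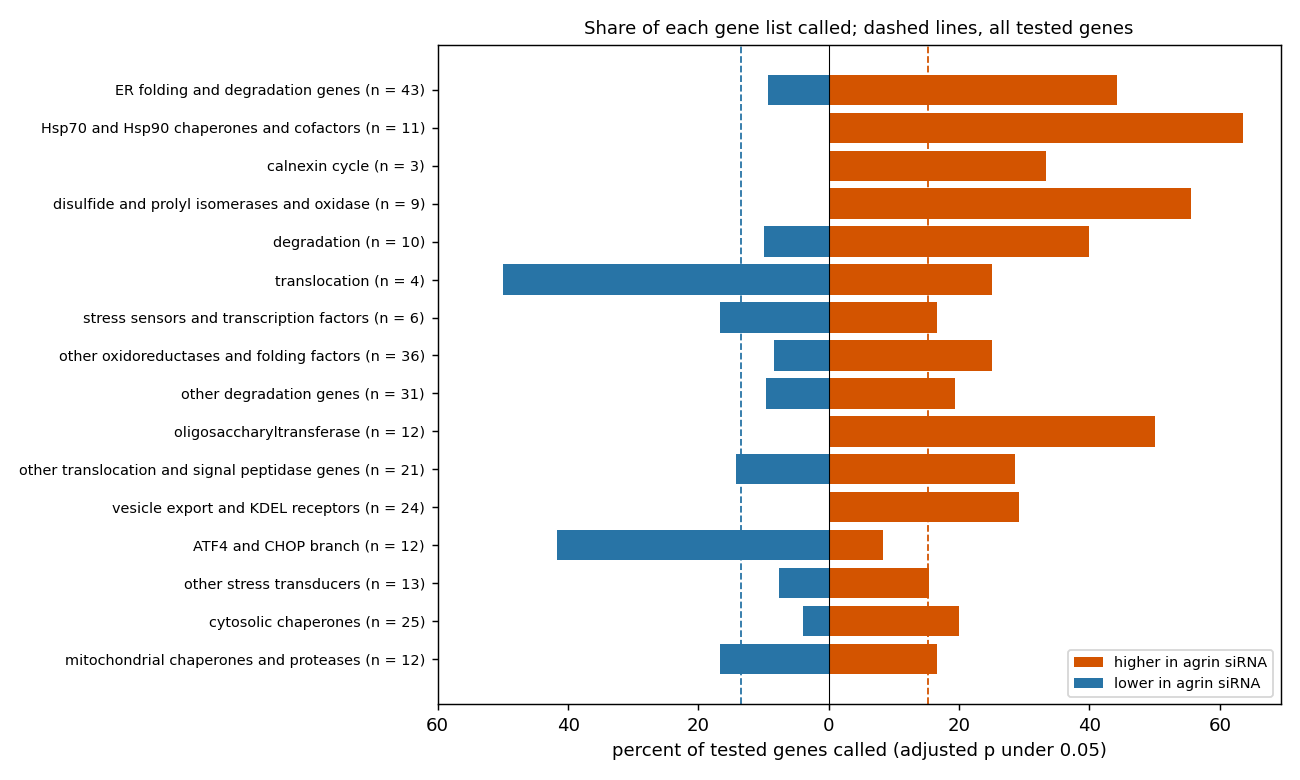
Percent of the tested genes of each list called higher (right) or lower (left) in agrin siRNA libraries at adjusted p under 0.05, with n tested genes in brackets and dashed lines at the share over all tested genes, 15.2% higher and 13.5% lower. The Hsp70 and Hsp90 chaperones have 7 of 11 genes to the right and none to the left, and the ATF4 and CHOP branch has 5 of 12 to the left.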

How the data were processed

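Polyadenylated RNA of 6 BJ libraries was extracted with a Zymo Quick-RNA kit and prepared with TruSeq Stranded mRNA, per the labels' protocols. The submitters' processing notes name hg38, HTSeq, SAMtools, edgeR and STAR 2.6.1d. The sources used here give no annotation release, strand setting, gene filter or normalization factors. The deposited signal is a scaled CPM by gene symbol, with column sums of 1073188 to 1096534. All values (100%, tolerance 0.01 of a read) were whole multiples of 1 read, which gave 42736368 to 48246613 reads per library.

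Genes at 1 or more in at least 3 libraries were tested on log2(value + 0.5) with limma 3.58.1 (R 4.3.3, variance trend, no covariate, Benjamini-Hochberg over 13206 genes). Log2 fold changes are on this scale and are too small for low genes. edgeR 4.0.16 on the recovered reads called 1844 genes higher and 1887 lower, and DESeq2 1.42.0 was a further alternative. The design had assumed CPM values, and the same test was kept for the scaled values found. The test was first tested on simulated data. The members and lists were chosen with earlier results of these data known. Values per library are given, by rule, for HSPA5, XBP1, ATF6, ERN1, EIF2AK3, AGRN, genes of the set called lower and the 12 called higher with the largest change, while the other lists are shown by up to 2 called genes in each direction with the largest change. HSP90B1, CANX, UGGT1, ERO1B, SEC61B, SEC61A1, DDIT3, ATF4 and the ratios were added after their values were seen. So were SERPINH1, P3H1, CRTAP, COL1A1, COL1A2 and COL3A1. Coordinates and lengths are from GENCODE release 29 (GRCh38), promoters from RefSeq (GRCh38.p14). Figures were drawn with matplotlib 3.10.9 (Python 3.11.15).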

Additional observations from a re-analysis of the deposited data

How the results depend on the processing

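Of the 43 genes, 19 were called higher and 4 lower. With no alternative did the direction of a called gene reverse. The counts were 14 and 7 after rescaling to the total without mitochondrial genes and the 10 most abundant. Leaving out 1 library in turn gave 9 to 19 higher and 2 to 7 lower in the set, and 1124 to 2551 higher and 947 to 2588 lower over all tested genes, where all libraries gave 2005 and 1783. edgeR called 15 of the set higher and 4 lower (19 of 19 calls shared), and DESeq2 18 and 5 (22 of 23 shared). Of the 23 called genes, 11 kept their call in all 19 alternatives, and 10 of the 20 others were called in none. Pseudocounts of 0.1 and 1, a mean of at least 5 and a robust prior each left 19 and 4. Whether replicate numbers pair the samples is not known. Deviations from the group means of same-numbered libraries correlated at -0.037, 0.175 and 0.202 for replicates 1, 2 and 3. Agrin siRNA replicates 2 and 3 correlated best with the control siRNA library of their own number, and agrin siRNA replicate 1 did not. Deviations from a mean of 3 libraries are tied to each other, so these correlations cannot settle pairing. The fit with the replicate number as a block gave 15 higher and 5 lower in the set, and 1905 and 1775 over all genes. The cause of these differences was not tested, and the fits without 1 library hold fewer samples. At these depths counting error is small for most of these genes, and 3 libraries a group limit the precision.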
